A study of Mus musculus with 63 samples.

Results

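The comparison described here is that of 5 peritoneal macrophage libraries named IFN with 3 named UT, all from old male R1441C knock-in mice, which are 8 of the 63 libraries of the series. They were chosen by the names of their columns in the count table (IFN numbers 1 to 5, UT numbers 2, 4 and 5), without use of any measured value. The R1441C allele changes the GTPase domain of leucine-rich repeat kinase 2 in the animals' own Lrrk2 gene, and both groups carry it. The study's design text gives ages of 18 to 21 months for old animals. The mice were compared in the study with B6 controls. All animals received buprenorphine, and cells were collected 72 hours after intraperitoneal injection of 3% thioglycollate broth, adhered to plastic, and received 100 U of interferon-gamma (IFN) or water (UT, untreated) for 18 hours. The study asked how the allele alters macrophage functions with sex and age, and this comparison asks which transcripts differ with the IFN label. No label says whether the libraries came from separate animals or whether animals were pooled, so p-values measure only the spread between libraries. The main test takes that spread from all 63 libraries, within their 16 groups. Nothing in the counts shows the allele itself.

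Interferon-gamma is a cytokine of T cells and NK cells that binds its receptor on macrophages and turns on guanylate-binding proteins, the chemokine CXCL9, inducible nitric oxide synthase and MHC class II genes. Thioglycollate recruits monocytes to the peritoneum, where they become macrophages. The peritoneum also holds resident B cells, among them B-1 cells, which make natural IgM with a restricted set of variable (V) segments. A washed, adherent preparation can therefore carry some lymphocyte RNA besides that of macrophages.

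The labels of the 8 libraries were not uniform. The 3 UT libraries were untreated by title and description, but their treatment field read interferon-gamma, and no other group of the 16 in the series had such a conflict. Pooled over the series, the IFN-responsive transcript Gbp2 did not follow the treatment label either. Gbp2 lay between 4372 and 7510 CPM (counts scaled to a common library size) in all 36 libraries labelled old, and between 13.5 and 883 CPM in all 27 labelled young, whereas libraries labelled IFN spanned 16.7 to 6663 CPM and those labelled UT 13.5 to 7510 CPM. Within strata this varied. Labelled IFN lay above labelled UT in young wild-type females (655.3 to 882.7 against 13.5 to 195.3 CPM) and males (235.2 to 662.2 against 114.6 to 186 CPM). It lay below in old wild-type males (4599 to 5520 against 5992 to 6621 CPM), and the labels overlapped in the remaining strata. The groups are therefore called the libraries labelled IFN and labelled UT. Total counts were 97.3 to 102.5 M for the 8 libraries. The sex label held in both groups, with Ddx3y, a Y-linked gene, at 37.3 to 54.8 CPM and Xist, the RNA of the inactive X chromosome, at 0 to 2.34 CPM. The macrophage genes Adgre1 (669.9 to 1013 CPM) and Csf1r (1028 to 1347 CPM) were high in all 8.

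Few genes differed between the labels, and no IFN-gamma response gene was among them. Of 22147 genes tested with edgeR's quasi-likelihood test, 23 were called at an adjusted p below 0.05 (0.104%), of which 14 were higher (0.0632%) and 9 lower (0.0406%) in the libraries labelled IFN. The median log2 change over all genes was 0.01. Without adjustment, 988 genes were higher (4.46%) and 991 lower (4.47%) at p below 0.05. In 787 genes all libraries labelled IFN lay above all labelled UT (3.55%), and in 567 all lay below (2.56%). The calls covered 9 protein-coding genes (2 higher and 7 lower), 5 pseudogenes (3 higher and 2 lower), 3 immunoglobulin genes, a pair of noncoding RNA genes, and 4 gene identifiers for which the annotation used gave no symbol. The groups did not overlap in 22 of the 23. Only 2 called genes had a mean of at least 10 CPM in both groups, as 8218 of the tested genes did, and both were lower.

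The IFN-gamma response list held 39 tested genes. None was called (smallest adjusted p in edgeR 0.661), none had an unadjusted p below 0.05, 18 changes were positive, and the median log2 change was -0.03 against 0.01 over all genes. Gbp2, a guanylate-binding protein that acts against intracellular microbes, was at 5449, 6297, 6663, 5315 and 6399 CPM in libraries labelled IFN 1 to 5 and at 6370, 5616 and 7265 CPM in UT 2, 4 and 5. Both groups were high and overlapped, and the log2 change was -0.09 ± 0.54 (SE).

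Cxcl9, a chemokine that draws activated T cells, was at 2895, 3354, 1366, 1422 and 1372 CPM in the libraries labelled IFN and at 3214, 1039 and 3631 CPM in those labelled UT. Nos2, inducible nitric oxide synthase, was at 399.6, 469.6, 96.1, 68.05 and 85.03 CPM in the libraries labelled IFN and at 445.5, 78.4 and 519.1 CPM in those labelled UT. For Nos2 and Cxcl9 the 8 libraries fell into 2 sets that cut across the labels: IFN 1, IFN 2, UT 2 and UT 5 were high, and IFN 3, IFN 4, IFN 5 and UT 4 low. The same split lay on the first principal component, which held 49.6% of the variance over 8763 genes, while the labels were separated on the second, with 21.1%. The log2 changes were -0.34 ± 0.77 for Cxcl9 and -0.64 ± 0.95 for Nos2 (adjusted p in edgeR 0.929 and 0.882).

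Lrrk2 itself was at 120.2, 165.8, 108.1, 101.3 and 104.1 CPM in the libraries labelled IFN and at 156.5, 134.1 and 145.6 CPM in those labelled UT. These values overlapped, and the log2 change was -0.28 ± 0.27 (adjusted p in edgeR 0.805).

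**Figure D1:**
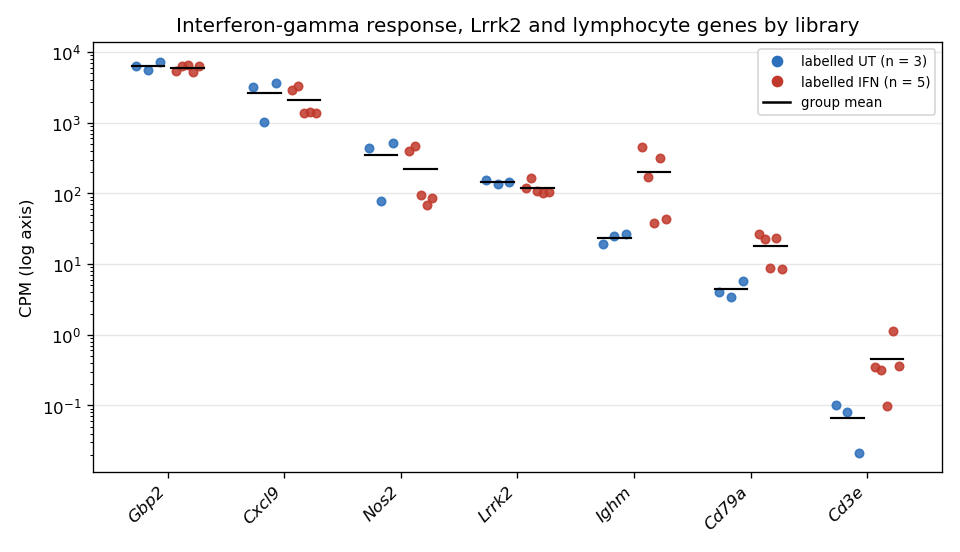
CPM (log axis) of 7 genes in the 3 libraries labelled UT (blue) and the 5 labelled IFN (red); each point is a library and the black line the group mean. Gbp2, Cxcl9, Nos2 and Lrrk2 overlap between the labels, and all 5 libraries labelled IFN lie above all 3 labelled UT for Ighm and Cd79a but not for Cd3e.

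The other interferon and presentation lists held no called gene. Of 32 type I interferon-stimulated genes, 21 changes were positive and the median log2 change was 0.07. All 14 MHC class II presentation genes had positive changes (median 0.14, no gene called), with the invariant chain Cd74 at 4854 to 5307 CPM against 4407 to 5201 CPM. The largest of them belonged to H2-Eb2 (1.64 ± 0.78) and H2-Ob (1.22 ± 0.69), singled out after their values were seen; H2-Ob encodes a chain of a regulator of peptide loading that B cells are known for. With B and T cell marker scores in the fit, described further on, those changes were -0.61 and -0.77. The median of the whole list turned to -0.20 in that fit, and H2-Ob and H2-Oa (-1.20) were called lower. MHC class I and immunoproteasome genes had 17 positive changes of 23 (median 0.07), and B2m, the light chain of class I molecules, was at 5639 to 6886 CPM against 5714 to 6407 CPM.

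Lymphocyte transcripts were higher as a group in the libraries labelled IFN, although single marker genes did not pass the adjusted test. Of 23 tested B cell markers, 23 had positive changes, 18 had an unadjusted p below 0.05 (background 4.46% higher), and in 20 all libraries labelled IFN lay above all labelled UT (background 3.55%). Their median log2 change was 1.68, and none was called (smallest adjusted p in edgeR 0.0828, for Ly6d). Fewer cells of a type and less RNA per cell cannot be told apart in bulk samples. The summed CPM of the B cell list was 300.8 to 373.5 in the libraries labelled IFN and 219.4 to 241.8 in those labelled UT. Blnk and Cd22, a signalling adaptor and a surface lectin of B cells, make up most of those sums in the libraries labelled UT, and Blnk was at 100.02 to 109.8 CPM against 90.1 to 96.8 CPM. Over the 21 members below 10 CPM in the libraries labelled UT, the sums were 65.9 to 173.7 against 37.7 to 48.2 CPM.

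Cd79a, a signalling chain of the B cell receptor, was at 26.7, 22.6, 8.89, 23.8 and 8.41 CPM in libraries labelled IFN 1 to 5 and at 4.03, 3.47 and 5.76 CPM in UT 2, 4 and 5. Ighm, the constant part of IgM, was at 452, 169, 38.4, 316 and 43.2 CPM in the libraries labelled IFN and at 19.3, 25.4 and 26.4 CPM in those labelled UT. IFN 1, 2 and 4 were high for both genes, and IFN 3 and 5 were lower but still above every library labelled UT. The log2 changes were 2.03 ± 0.66 for Cd79a (adjusted p in edgeR 0.289) and 3.11 ± 0.76 for Ighm (0.0864). Igkc, the constant part of the kappa light chain, passed the test: it was at 141.55, 44.4, 11.4, 96.99 and 14.7 CPM against 3.80, 6.37 and 4.72 CPM, a log2 change of 3.64 ± 0.73 (adjusted p in edgeR 0.00887). It was the 1 called gene of 17 tested plasma cell and immunoglobulin constant genes, whose median log2 change was 1.38.

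T cell markers lay far lower in level. Of 26 tested, 24 had positive changes, and 16 were higher at an unadjusted p below 0.05 (background 4.46%). In 10 all libraries labelled IFN lay above all labelled UT (background 3.55%), and none was called (median log2 change 1.94). Cd3e, a chain of the T cell receptor complex, was at 0.350, 0.319, 0.0994, 1.13 and 0.364 CPM in the libraries labelled IFN and at 0.102, 0.0797 and 0.0214 CPM in those labelled UT. IFN 4 was the highest and IFN 3 overlapped the libraries labelled UT. The sum over the 25 members below 10 CPM in the UT libraries was 10.8 to 35.8 CPM against 7.48 to 10.7 CPM. Il7r, an interleukin-7 receptor chain that dominates the full list, was at 208.3 to 304.5 CPM against 212.6 to 368.1 CPM and did not follow the label.

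Lists of other cells did not separate the labels. NK cell markers had 8 positive changes of 13 and mesothelial and fibroblast markers 4 of 15, with no gene called. Summed red cell markers reached 72.8 CPM in IFN 1 and lay between 4.595 and 14.6 CPM in the other 7 libraries. No other-cell list was at 0 throughout; the markers without a count in either group were Ighe and Mcpt8.

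**Figure D2:**
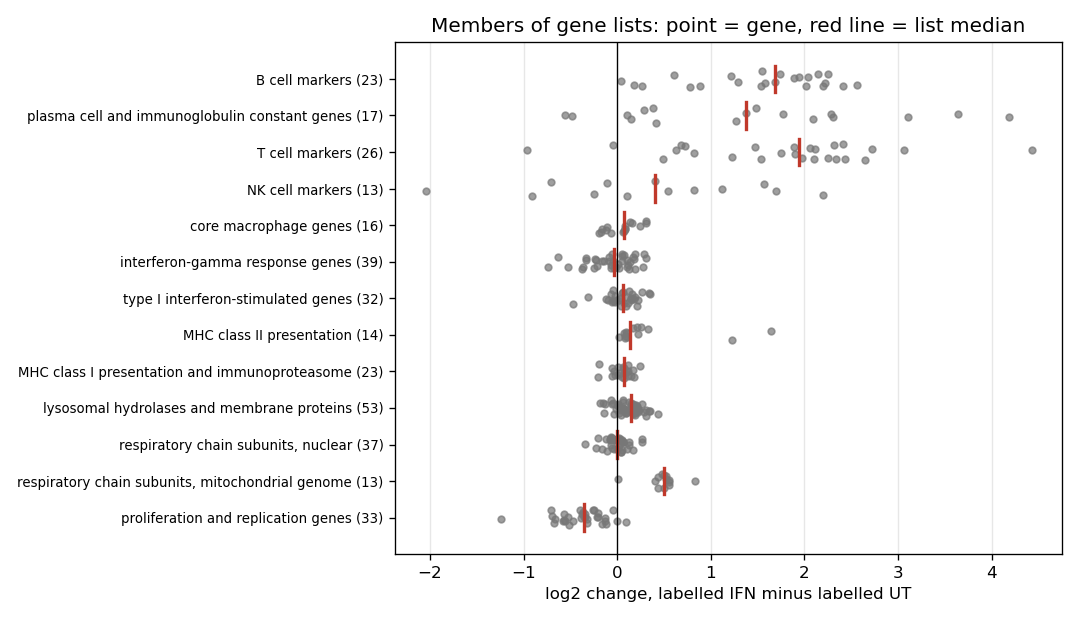
Log2 change, labelled IFN minus labelled UT, of each tested member of 13 gene lists (1 point a gene, number tested in brackets), with the list median in red. Medians of the B cell and T cell lists are 1.68 and 1.94, that of the IFN-gamma response list is -0.03, and that of the mitochondrial genome is 0.50.

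The counts of V segments show which segments the B lineage RNA used, not which whole antibodies it encoded. The table held 348 immunoglobulin V segments, and 188 were tested. Of these 141 had positive changes (51.5% over all genes), with a median of 1.02. At an unadjusted p below 0.05 in edgeR, 34 were higher and 1 lower (4.46% and 4.47% over all genes). In 14 all libraries labelled IFN lay above all labelled UT (3.55% over all genes). Called higher were 2 (0.0632% over all genes), Ighv11-2 and Igkv14-126, a heavy and a light chain segment known to be used together by B-1a cells that bind phosphatidylcholine. The ends of these segments and of the leading segments of IFN 3 and 5 follow, because they differ between sets of libraries. Each is the last 120 bases of the GENCODE vM21 transcript (GRCm38), and the capitals mark the motif TATTNCTGT, which encodes the tyrosine and cysteine codons before the third hypervariable loop and occurs within the last 120 bases of 64% of 267 V segment transcripts. Segments of 1 family can share reads, so single counts are uncertain.
Ighv11-2: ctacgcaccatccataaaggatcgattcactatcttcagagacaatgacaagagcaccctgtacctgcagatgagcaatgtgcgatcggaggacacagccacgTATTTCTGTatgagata
Igkv14-126: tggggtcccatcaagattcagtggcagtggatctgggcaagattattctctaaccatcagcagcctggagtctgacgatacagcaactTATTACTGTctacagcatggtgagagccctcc
Ighv5-16: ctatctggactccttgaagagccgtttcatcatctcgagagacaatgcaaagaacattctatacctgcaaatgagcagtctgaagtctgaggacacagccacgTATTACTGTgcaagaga
Igkv12-44: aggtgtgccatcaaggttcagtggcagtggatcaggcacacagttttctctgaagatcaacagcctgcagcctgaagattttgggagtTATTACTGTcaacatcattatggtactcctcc

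All V segments together summed to 416.1, 136.4, 30.2, 334.1 and 34.3 CPM in libraries labelled IFN 1 to 5 and to 10.3, 18.6 and 15.5 CPM in UT 2, 4 and 5. The groups did not overlap, and the difference of mean log2 values was 2.99 (exact permutation test, two-sided p = 0.0357, the smallest that the 56 splits of 5 against 3 allow). That test takes the libraries as independent, which the labels do not establish and the likeness in V usage described below leaves in doubt. Igkv14-126 was at 193, 54.1, 3.23, 118 and 4.28 CPM against 0.488, 2.09 and 1.18 CPM. Its log2 change was 5.89 ± 1.06 and that of Ighv11-2 5.44 ± 1.04 (adjusted p in edgeR 0.00319 and 0.00659). Ighv11-2 was the 1 called gene whose groups overlapped, with 2.23 CPM in IFN 3 and 2.40 CPM in UT 4.

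The composition of the V counts differed within the group labelled IFN. Igkv14-126 and Ighv11-2 made up 46.4% (95% interval 45.9 to 46.9, exact Clopper-Pearson) and 34.9% (34.4 to 35.4) of the 40445 V counts of IFN 1. They made up 39.6% and 30.2% in IFN 2, and 35.3% and 30.7% in IFN 4. In IFN 3 and IFN 5, which had 2736 and 3201 V counts, they held between 7.38% and 12.5% each, and Igkv12-44 (32.2% and 30.8%) and Ighv5-16 (15.9% and 15.5%) led instead. In the libraries labelled UT, with 1017 to 1862 V counts, Ighv5-16 stayed at or under 0.552%, Igkv12-44 at or under 1.08%, Igkv14-126 reached 4.72%, 11.3% and 7.59%, and Ighv11-2 reached 2.56%, 12.9% and 9.1%. For Igkv14-126 and Ighv11-2 the shares of UT 4 and UT 5 (7.59% to 12.9%) covered a range like that of IFN 3 and IFN 5 (7.38% to 12.5%). Single pairs were not all close: Ighv11-2 was at 12.9% (11.5 to 14.6) in UT 4 and 7.38% (6.43 to 8.43) in IFN 3. The leading segments thus split the 5 libraries into IFN 1, 2 and 4 on one side and IFN 3 and 5 on the other. These intervals cover counting error only, since reads without molecular identifiers are not independent molecules.

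V usage was shared with libraries of other groups. Over the 348 segments, the square roots of the shares, less their mean over all 63 libraries, correlated at r = 0.90 between IFN 3 and IFN 5. The same measure gave 0.88 to 0.90 between either of them and young knock-in male libraries labelled IFN 3 and 4, and 0.99 between IFN 1 and library 2 of that young group. The best partner of IFN 4 was library 5 of the untreated young wild-type males (0.74), and IFN 1 also correlated with library 2 of that group (0.68). Among the 3 libraries labelled UT the measure was at most 0.38, and with other groups they reached 0.49, between UT 2 and library 3 of the untreated old knock-in females. Segments are not independent points and each library's depth enters, so these are descriptions. The labels do not say whether any of these libraries share an animal. Transcriptome-wide, IFN 3 and IFN 5 were also the least different pair (chi-square per degree of freedom 13), followed by UT 2 and UT 5 (17.3), and neither pair was within sampling noise.

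**Figure D3:**
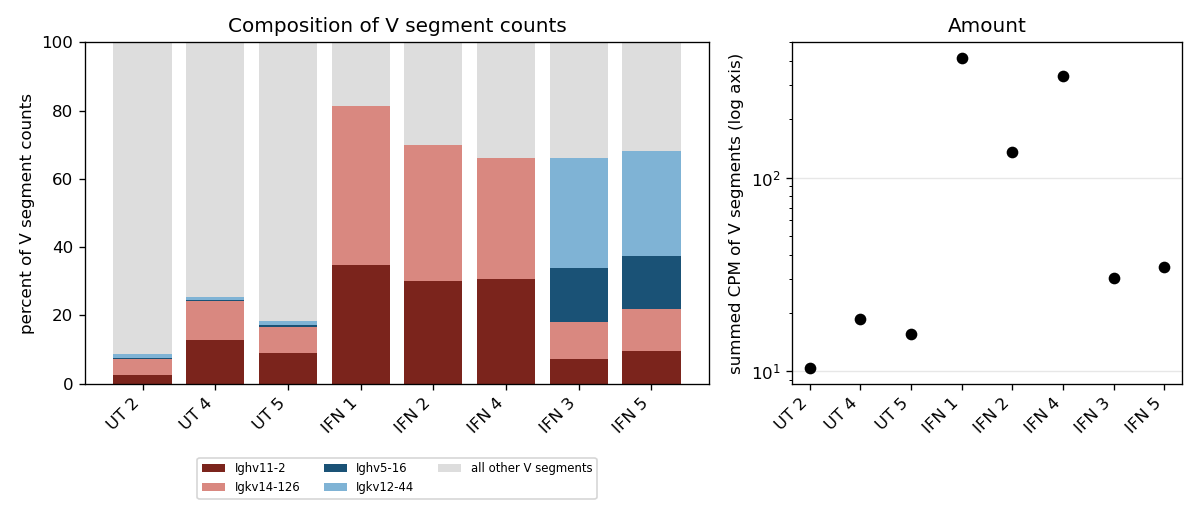
Left, percent of all immunoglobulin V segment counts taken by 4 segments and by all others in each of the 8 libraries; right, summed CPM of all V segments (log axis). Ighv11-2 and Igkv14-126 lead in IFN 1, 2 and 4, Igkv12-44 and Ighv5-16 in IFN 3 and 5, and all 5 libraries labelled IFN lie above the 3 labelled UT in amount.

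Some called genes that rose are tied by name to Sp100 or lie in its stretch of chromosome 1. Sp100 is a gene for a nuclear body protein that interferons are known to induce. Apart from the promoter of Gm7609, likeness of these genes to Sp100 was not tested. Csprs, a component of the repeated Sp100-related sequences, was at 7.09, 7.23, 5.10, 4.87 and 4.47 CPM in libraries labelled IFN 1 to 5 and at 1.03, 0.468 and 1.496 CPM in UT 2, 4 and 5. Every library labelled IFN was above every library labelled UT, and the log2 change was 2.53 ± 0.44 (adjusted p in edgeR 0.00270). The pseudogene Gm7609, singled out after its values were seen, was at 2.86, 2.73, 1.79, 2.08 and 1.91 CPM against 0.284, 0.299 and 0.599 CPM (log2 change 2.53 ± 0.50, adjusted p 0.00887). For Gm7609, IFN 3 and 5 were the lowest of the 5 libraries labelled IFN, and for Csprs IFN 4 lay between them. Reads of near-identical copies cannot be assigned with certainty, so these single values are uncertain.

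Gm7609 lies in the same stretch of chromosome 1 as Sp110, Sp140 and Sp100, with other annotated genes between, and its promoter is nearly that of Sp100. The 250 bases before the annotated start of each are shown from RefSeq (GRCm38.p6, plus strand), Gm7609 at chr1:85199361-85199610 and Sp100 at chr1:85649764-85650013. Shifted by 2 bases, 247 of 248 compared bases were identical (99.6%), and the capital marks the base that differs. Gbp2 (chr3:142620413-142620662, plus strand) is shown for contrast, with capitals on its match, on the other strand, to a core of the interferon-stimulated response element (GAAA, any 2 bases, GAAA), which begins 59 bases before the start.
Gm7609: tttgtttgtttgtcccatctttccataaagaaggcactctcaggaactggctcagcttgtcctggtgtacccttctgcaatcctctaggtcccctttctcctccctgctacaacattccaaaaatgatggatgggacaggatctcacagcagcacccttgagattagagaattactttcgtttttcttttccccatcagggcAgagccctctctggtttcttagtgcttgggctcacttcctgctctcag
Sp100: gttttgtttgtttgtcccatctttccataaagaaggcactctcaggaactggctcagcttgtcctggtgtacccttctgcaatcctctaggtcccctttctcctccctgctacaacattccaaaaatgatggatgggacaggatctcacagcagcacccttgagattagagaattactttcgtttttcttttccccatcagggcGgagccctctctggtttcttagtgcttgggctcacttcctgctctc
Gbp2: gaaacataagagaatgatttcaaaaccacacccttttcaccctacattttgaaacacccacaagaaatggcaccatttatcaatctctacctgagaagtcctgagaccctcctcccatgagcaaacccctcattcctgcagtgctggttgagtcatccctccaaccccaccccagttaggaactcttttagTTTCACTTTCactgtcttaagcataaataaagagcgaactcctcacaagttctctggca
On either strand, this response element core occurred in 2.98% of 32851 RefSeq promoter windows of this length. It was not found in the Gm7609 and Sp100 windows, which says only that these letters are not there.

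Sp100 itself was not called. It was at 183.8, 187.2, 158.5, 176.1 and 143.5 CPM in the libraries labelled IFN and at 151.2, 146.1 and 167.5 CPM in those labelled UT, a log2 change of 0.13 ± 0.12 (adjusted p in edgeR 0.789). In annotation order, 23 genes lie from A530032D15Rik to Sp100, a stretch chosen after the calls were seen, and 20 were tested. All 20 changes were positive (51.5% over all genes), 12 had all libraries labelled IFN above all labelled UT (3.55%), and 2, Gm7609 and Gm7592, were called higher (0.0632%). Since the stretch was chosen for its calls, these counts are a description. A530040E14Rik, the most abundant gene of the stretch after Sp110, Sp100 and Sp140, was at 48.5, 51.0, 51.9, 48.5 and 52.1 CPM against 25.4, 24.0 and 29.3 CPM. It had no overlap and a log2 change of 0.94 ± 0.22 (adjusted p in edgeR 0.0717), and was not called. Sp110 and Sp140 had log2 changes of 0.12 and 0.20 and were not called. The pseudogene AC133103.2 and the identifiers ENSMUSG00000118591 and ENSMUSG00000118607 rose as well, by 2.80 ± 0.52, 2.80 ± 0.46 and 2.50 ± 0.45, and so did 2 further identifiers without a symbol, by 2.57 ± 0.47 and 1.91 ± 0.38. Whether these are related to Sp100 was not tested.

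Bmpr1a, a type I receptor for bone morphogenetic proteins, was the other protein-coding gene that rose besides Csprs. It was at 7.90, 8.47, 6.50, 7.87 and 6.54 CPM in the libraries labelled IFN and at 3.59, 4.16 and 3.54 CPM in those labelled UT. The groups did not overlap, and the log2 change was 0.99 ± 0.19 (adjusted p in edgeR 0.00688). Of the other calls that were higher, the noncoding Gm48768 (0.97 ± 0.17) and Peak1os (1.58 ± 0.34), which is antisense to Peak1, lay below 2 CPM in every library. The strand setting of the counting is not given in the sources used here, so reads of Peak1os and its partner may be mixed.

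Among genes that fell, Ptprs and Prkcb were the most abundant. Ptprs, a receptor tyrosine phosphatase that binds proteoglycans, was at 24.4, 25.4, 29.0, 23.1 and 28.2 CPM in libraries labelled IFN 1 to 5 and at 40.2, 42.0 and 36.7 CPM in UT 2, 4 and 5. Its log2 change was -0.61 ± 0.09 (adjusted p in edgeR 0.000358), with no overlap. Prkcb, protein kinase C beta, was at 41.1, 52.8, 63.2, 47.7 and 60.5 CPM against 83.9, 84.6 and 75.4 CPM, a log2 change of -0.62 ± 0.12 (adjusted p 0.00841). All 5 libraries labelled IFN were below all 3 labelled UT for both genes, and for both IFN 3 and 5 were the nearest to the UT libraries.

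Rps4l, a copy of a ribosomal protein gene singled out after its values were seen, was at 4.09, 2.97, 5.01, 6.30 and 4.99 CPM in the libraries labelled IFN and at 15.8, 12.8 and 15.2 CPM in those labelled UT. Its log2 change was -1.64 ± 0.25 (adjusted p in edgeR 0.000358). Reads shared with Rps4x make the level uncertain. Gabbr2, a subunit of the GABA-B receptor, fell from 1.12, 3.20 and 1.65 CPM to between 0.208 and 0.928 CPM, by 1.89 ± 0.36. Fam149a fell by 0.81 ± 0.16 and Btbd3 by 0.50 ± 0.11, the latter from 8.47, 9.26 and 6.96 CPM to between 5.64 and 6.08 CPM. The other calls that were lower, Gm8276, Sgsm1 and Dazl, were rare: Dazl, an RNA-binding protein gene of germ cells, had 9, 2 and 7 counts in the libraries labelled UT and 1 count in all 5 labelled IFN.

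**Figure D4:**
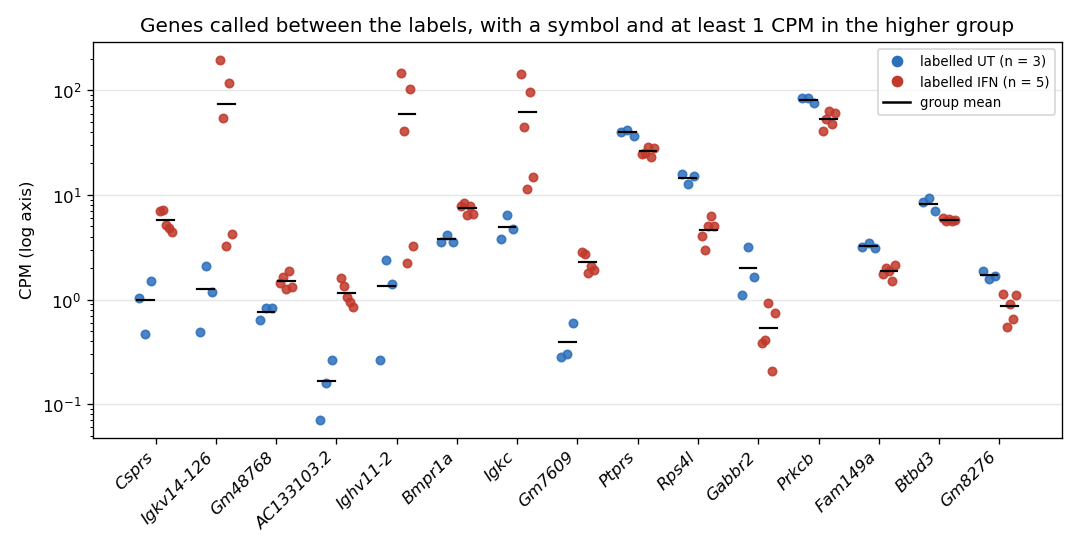
CPM (log axis) of the 15 called genes that have a symbol and average 1 CPM or more in 1 of the groups, in the 3 libraries labelled UT (blue) and the 5 labelled IFN (red), with group means as black lines. The groups are apart in every gene shown except Ighv11-2, and Igkv14-126, Ighv11-2 and Igkc split the 5 libraries labelled IFN into 3 high and 2 low.

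To separate macrophage changes from lymphocyte transcripts, the fit was repeated with a B cell and a T cell marker score of each library as covariates. The B cell score, a mean of centred log2 CPM, was 0.81, 0.59, -0.26, 0.70 and -0.23 in libraries labelled IFN 1 to 5 and -1.06, -1.37 and -0.85 in UT 2, 4 and 5. The T cell score was also higher in every library labelled IFN (-0.33 to 1.67) than in any labelled UT (-1.10 to -0.65). The groups do not overlap on either score, so the adjusted contrast rests on slopes taken from all 63 libraries. In this fit 157 genes were called (0.709%), 90 higher and 67 lower. The median of the B cell list moved from 1.68 to 0.00 and that of the T cell list from 1.94 to -0.05, which the scores use themselves.

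Of the 23 calls, 18 remained, 13 higher and 5 lower. Ptprs (-0.55, adjusted p in edgeR 0.00423), Prkcb (-0.59, 0.0208), Rps4l (-1.53, 0.000714), Csprs (1.92, 6.93e-05) and Bmpr1a (0.76, 0.0368) were among them. Igkc (2.61, 0.0249), Igkv14-126 (5.17, 0.0104) and Ighv11-2 (4.41, 0.0227) also remained, so these immunoglobulin transcripts exceeded what both marker scores accounted for in the model. Btbd3 (-0.44, 0.0530) and Gm7592 (1.91, 0.0528) did not pass.

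The macrophage lists held 586 distinct tested genes that were on no list of other cells. None was called without the scores, 31 were higher and 15 lower at an unadjusted p below 0.05 (4.46% and 4.47% over all genes), and the median log2 change was 0.01. With the scores 8 were called higher and 7 lower, where 0.709% of all genes were called in either direction. Those higher included the osteopontin gene Spp1 (1.498, adjusted p in edgeR 0.0272; 0.44 without the scores), the mannose receptor Mrc1 (1.21, 0.0322; 0.52) and the lysosomal genes Ctsh and Galns (0.44 and 0.60). Those lower included Timd4, a receptor for apoptotic cells on resident macrophages (-2.65, 0.00940; -1.45 without), the scavenger receptor Marco (-2.12, 0.0115; -1.38) and the chemokine Ccl5 (-1.62, 0.0379; -0.44). H2-Ob and H2-Oa of the MHC class II list were also among those lower. H2-Ob belongs to a regulator that B cells are known for, so these calls are not all particular to macrophages. All but Spp1 and Ccl5 were singled out after their values were seen. In each of these the change without the scores did not pass the test, and the smallest of their adjusted p-values there was 0.403.

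Gene lists of macrophage function moved little. Core macrophage genes had a median log2 change of 0.07 with no gene of 16 called, and lysozyme, Lyz2, was at 17850 to 22600 CPM against 19180 to 24680 CPM. Of 53 lysosomal genes, 44 had positive changes (51.5% over all genes), and the median was 0.14. At an unadjusted p below 0.05, 3 were higher (4.46% over all genes). In 7 all libraries labelled IFN lay above all labelled UT (3.55% over all genes). Psap, the precursor of lysosomal saposins, was at 25440, 30510, 34890, 30760 and 33280 CPM in the libraries labelled IFN and at 26870, 27700 and 26650 CPM in those labelled UT; these overlapped (log2 change 0.19 ± 0.22). The 20 autophagy genes and Rab substrates of LRRK2 had a median of 0.09, and none was called.

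Transcripts of the mitochondrial genome were higher as a group. All 13 had positive changes, and 11 were higher at an unadjusted p below 0.05 (4.46% over all genes). In 8 all libraries labelled IFN lay above all labelled UT (3.55% over all genes). The median log2 change was 0.50, against 0.00 for 37 nuclear genes of the respiratory chain. None passed the adjusted test (smallest adjusted p in edgeR 0.132). mt-Co1, a subunit of cytochrome c oxidase, was at 3281, 3929, 3936, 3949 and 3775 CPM in the libraries labelled IFN and at 2711, 2631 and 2802 CPM in those labelled UT, a log2 change of 0.48 ± 0.16 (adjusted p 0.297). Mitochondrial transcripts were 1.16% to 1.49% of counts in libraries labelled IFN and 0.946% to 1.06% in those labelled UT. This share, which can also follow RNA quality, was apart between the labels, and its part in the results above was not tested.

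Of 33 proliferation genes, 32 had negative changes (median -0.35), 2 were lower at an unadjusted p below 0.05 (4.47% over all genes), and none was called. The median was -0.05 with the scores in the fit. The mean log2 CPM of the list was 2.27, 2.33, 2.97, 2.64 and 2.87 in libraries labelled IFN 1 to 5 and 2.81, 3.45 and 2.67 in UT 2, 4 and 5, so UT 4 was the highest and IFN 3 and 5 lay above the other libraries labelled UT. Pcna was the member with a positive change (0.09 ± 0.14). The replication genes Pcna and Mcm3 were at 157.5 to 190.6 and 42.4 to 47.8 CPM in the libraries labelled IFN and at 162.7 to 173.3 and 46.0 to 51.3 CPM in those labelled UT, so both overlapped.

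The label effect was set beside that in wild-type old males (5 labelled IFN, 3 labelled UT), knock-in old females (5 and 5) and knock-in young males (3 and 3; 2 to 3 months), groups that share no library with the 8. There, 559 (2.52%), 1286 (5.81%) and 7 (0.0316%) genes were called. Of the 23 genes, 13, 15 and 4 were called in those strata, and the change of 17 had the same sign in all 3 as in the 8 libraries. Csprs had log2 changes of 2.16 ± 0.44, 3.29 ± 0.37 and 2.27 ± 0.49, and Bmpr1a of 0.85 ± 0.19, 1.35 ± 0.16 and 1.09 ± 0.21. Ptprs had -0.38 ± 0.09, -0.61 ± 0.08 and -0.22 ± 0.11. Their signs were the same as in the 8 libraries.

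Other genes had a different size or sign elsewhere. Igkv14-126 had 3.64 ± 0.94 in wild-type old males and 4.62 ± 1.02 in knock-in young males, but -0.37 ± 0.75 in knock-in old females. In the 3 knock-in young male libraries labelled IFN it ran from 2.71 to 105.8 CPM, so that change is uneven between libraries. Library 2 of that group held 25831 V counts, against 2614 and 3197 in libraries 3 and 4. Its V usage was the one that correlated with IFN 1 at 0.99. Gm48768 had 0.24 ± 0.17, 0.12 ± 0.15 and 0.09 ± 0.18, and Prkcb -0.06 ± 0.12, -0.38 ± 0.11 and -0.09 ± 0.14. In tests of the difference itself, edgeR called 0 genes against each of the 3 strata (0% of genes; smallest adjusted p 0.123 for genotype, 0.0681 for sex and 0.313 for age). At an unadjusted p below 0.05 there were 3692 (16.7%), 1560 (7.04%) and 1533 (6.92%) genes for genotype, sex and age, and DESeq2 called 101, 9 and 5. Absence of calls in edgeR is therefore not evidence of equal label effects. The smallest adjusted p for sex belonged to Igkv14-126 (difference 6.26) and Ighv11-2 (5.99).

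**Figure D5:**
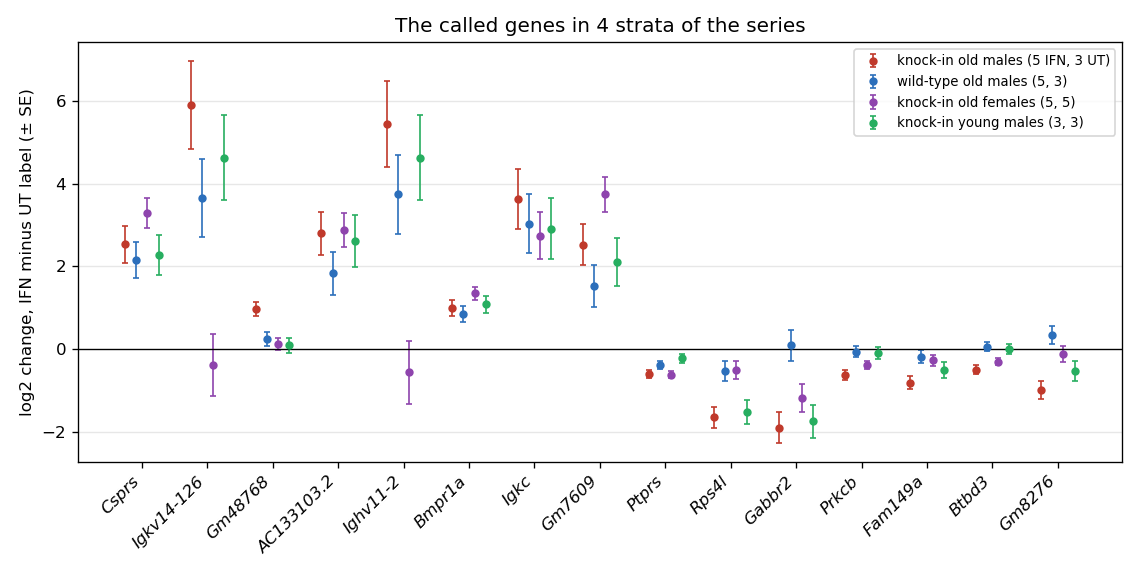
Log2 change with its SE, labelled IFN minus labelled UT, of the 15 genes of the plot of called genes in knock-in old males (red) and in 3 other strata, with the number of IFN and UT libraries in brackets. Csprs, AC133103.2, Bmpr1a, Igkc and Gm7609 lie above 0 in all 4 strata, and Igkv14-126 and Ighv11-2 lie near 0 in knock-in old females.

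The calls depended on single libraries. Without IFN 1 there were 68 calls, and without UT 2, UT 4 or UT 5 there were 4, 12 and 13. Ptprs, Rps4l and ENSMUSG00000118591 were called in all 8 fits that left out 1 library. With IFN 1, 2 and 4 left out together, a choice made after seeing the V segments, none of the 23 was called, while log2 changes were 2.26 for Csprs, -0.47 for Ptprs, -1.55 for Rps4l, 0.79 for Bmpr1a, 1.4 for Igkc and 0.97 for Cd79a.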

How the data were processed

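Poly(A) RNA of 63 macrophage libraries was sequenced, and the authors deposited whole-number counts per gene. Per the submitters' processing notes, STAR 2.7.9a, DESeq2 1.40.2 and GRCm39 were used; for the counter, its annotation and strandedness, the steps are not given in the labels. Symbols came from GENCODE vM21 (GRCm38) for 52125 of 56748 gene identifiers.

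All 63 libraries in 16 groups were fitted with edgeR 4.0.16 (R 4.3.3; filterByExpr, TMM, quasi-likelihood F test, Benjamini-Hochberg over 22147 genes, threshold 0.05). SE is the absolute log2 change over the square root of F, CPM use TMM, and at 97.3 to 102.5 M counts a gene at 1 CPM has about 100 counts. On simulated counts 85% of 100 genes at 1 CPM or more, changed by a log2 of 1, were recovered, and 9 unchanged genes were called. Those counts were drawn independently, without the likeness between libraries seen here. Alternatives covered DESeq2 1.42.0, filtering, marker scores, left-out libraries and the replicate block. Named were fixed index genes, called genes with 1 CPM or more by size of change, and called or most abundant list members; predicted genes, pseudogenes and immunoglobulin segments lie outside this rule, and those named, like other exceptions, were chosen after their values were seen. The comparison, its genes and lists were chosen with earlier results of these data known.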

Additional observations from a re-analysis of the deposited data

Results flagged for a closer look

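Of 61 values examined over the 5 libraries labelled IFN, 5 had a single library far from the others, and chance flags about 1 in 20 groups. Cd3e was at 1.13 CPM in IFN 4, against 0.364 CPM in the next library. mt-Co1 was lowest in IFN 1, at 3281 CPM, with the next library at 3775 CPM. Hba-a1, an alpha globin gene, was at 31.0 CPM in IFN 1 and 3.92 CPM in the next, and the summed red cell markers were at 72.8 CPM in IFN 1 and 9.68 CPM in the next. Dazl had its single count in IFN 3 (0.011 CPM) and 0 in the others.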

How the results depend on the processing

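The count of 23 calls stayed within 1.5 times under DESeq2 size factors, without the low-count filter and with the 8 libraries fitted alone, but was 81 with DESeq2's Wald test, 157 with the marker scores and 4 to 68 when 1 library was left out. With IFN 3 and 5, and UT 2 and 5, averaged into 1 each it was 12, and with IFN 1, 2 and 4 left out 1, both chosen after seeing the data. The fit with marker scores gave 935 calls with the B cell score alone and 77 with the 36 old libraries alone. Differences between strata had 0 calls, but 101 (genotype), 9 (sex) and 5 (age) with DESeq2. With the scores there were 80 for genotype and 7 for sex. The sex difference also had 0 to 21 calls when 1 library was left out, 6 without knock-in old females 4 and 5, 2 with IFN 3 and 5 averaged, and 1 without IFN 1, 2 and 4. With the replicate block there were 13 calls over all libraries, 6 in the 8 libraries alone, and 1 for the sex difference. Whether the numbers pair the samples cannot be told from the values. Deviations of UT 2 and UT 4 correlated best with the IFN library of the same number, at 0.58 and 0.71. UT 2 was nearly as close to IFN 1 (0.52). UT 5 correlated at -0.16 with IFN 5 and best with IFN 2 (0.47). With the scores, list medians changed sign for MHC class II (0.14 to -0.20), mast cell (1.04 to -1.04) and mesothelial and fibroblast genes (-0.54 to 0.50), among others, and uncalled genes such as Gbp2 and Cxcl9 changed sign under some alternatives. None of the 23 called genes did under an alternative run for it. Ighm passed the test under DESeq2 (adjusted p 0.000351) but not in edgeR. The cause of these differences was not tested. At these depths changes of genes below 1 CPM rest on about 100 counts or fewer.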

Other observations

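Further lists fixed for the macrophages held no called gene. Of 20 glycolysis genes and HIF targets, 17 had negative changes (median log2 change -0.13), as did 10 of 13 CXC chemokines (-0.23) and 8 of 12 CC chemokines (-0.12). Of 17 genes of resident large peritoneal macrophages, 13 had negative changes (median -0.26), and their summed level was 1582 to 3413 CPM in the libraries labelled IFN and 940.7 to 3254 CPM in those labelled UT. Of 17 V-ATPase subunits, 14 had positive changes (median 0.09). Mast cell and basophil markers had 11 positive changes of 12 (median 1.04), with summed levels of 3.80 to 21.0 CPM against 4.68 to 9.18 CPM, which overlapped.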
